A study of Mus musculus with 36 samples.

Results

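The acute phase response is the change in secreted proteins that follows injury or infection. It is best known from the liver, where interleukin 6 acts through STAT3, and interleukin 1 and tumour necrosis factor act through NF-kappa B and C/EBP factors. Brain cells can make several of the same transcripts: astrocytes, microglia, endothelial cells and entering leukocytes are the sources usually named. The 9 genes described here are Lcn2, Saa3, Hp, Lrg1, Serpina3n, Serpina3f, Serpina3g, Steap4 and Cp, out of 54532 gene identifiers in the count table. They are a list of names, matched by symbol through the Ensembl identifier, and they were picked because they were high in diseased brain. Their levels and log2 changes in diseased against naive brain are therefore given as a description, and test results for them on that contrast appear only where they limit it. All 9 passed the filter on low counts, and for genes near 0 in naive brain that filter was passed through the diseased groups.

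The study sequenced RNA of brain from wild-type (WT) C57BL/6 mice on day 19, when experimental autoimmune encephalomyelitis (EAE), a model of multiple sclerosis, is at its peak. All 28 EAE libraries came from mice immunized with the MOG35-55 peptide of myelin oligodendrocyte glycoprotein in complete Freund's adjuvant. Pertussis toxin was given then and again 1 day later. Of these, 9 were otherwise untreated, 9 came from mice gavaged daily with the corn oil vehicle, and 10 from mice gavaged daily with trans, trans-farnesol, an isoprenoid alcohol, at 100 mg/kg/day in corn oil. The 8 naive libraries came from healthy mice. No group received adjuvant and toxin without the peptide, so the 3 cannot be told apart. The labels give neither age nor sex, and they number replicates without naming animals, so p-values measure the spread between these samples.

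Libraries held 14705992 to 24211092 counts. They fell into 2 sets by the ribosomal RNA gene CT010467.1, which read at most 2780 CPM (counts per 1e6 of library size, TMM-scaled) in 21 libraries (all untreated, all vehicle and farnesol replicates 1 to 3) and 5090 CPM or more in the other 15 (all naive and farnesol replicates 4 to 10). The labels do not name these sets, and only farnesol libraries lie in both, so for untreated and vehicle brains disease and library set cannot be told apart. Untreated replicate 3, farnesol replicate 2 and naive replicate 4 were low in cerebellar markers. In 8 EAE libraries (untreated replicates 1 to 5, replicate 3 being also among the former, and vehicle replicates 3 to 5) there were transcripts of Sbp, the spermine binding protein known from prostate, above 1 CPM. Neuron, astrocyte and oligodendrocyte markers were present in every group (lowest sums 4460, 3250 and 4340 CPM). Markers of hepatocytes, the main acute phase cells, summed to 7.72 CPM in naive replicate 1 and to between 0.989 and 4.01 CPM in the others.

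Every one of the 9 genes had a higher mean in each EAE group than in naive brain. Levels were also put in CPM per kilobase, over the joined length of all annotated exons of a gene. That length can exceed the length of the transcript made, so the order of genes depends on it. On this scale Serpina3n had the highest mean over the 28 EAE libraries at 23.2, followed by Lcn2 at 17.4, Lrg1 at 9.39 and Cp at 4.39. In untreated brains the mean CPM of Serpina3n and Lcn2 was 48.8 and 46.6, and their lengths were 2064 and 2623 bases. Hp (1.90), Serpina3g (1.64), Steap4 (1.26), Serpina3f (1.08) and Saa3 (0.896) were all below 2. In naive brain the order on that scale was different: Serpina3n (8.13) and Cp (1.97) led, Lrg1 stood at 0.876, and Lcn2 at 0.0847. For 5 genes (Lcn2, Lrg1, Serpina3f, Steap4 and Cp) all 28 EAE libraries lay above every naive library. For Saa3 and Hp 27 did, and for Serpina3n and Serpina3g 26. Over all 18438 genes tested, 13.6% rose in untreated brains against naive, 16.3% did with vehicle and 17.9% with farnesol (edgeR adjusted p below 0.05). When the model also held library set as a term, which only the farnesol libraries can estimate, these shares were 0.542%, 1.96% and 13.6%, and 0.407%, 1.75% and 12.7% of genes fell. These are shares of genes called, and the share of all genes with separate groups was not counted. Nothing is read from the count of separate genes, since the genes were chosen for being high in disease. Without the 3 libraries low in cerebellar markers the groups were separate for 8 of the 9 genes, all but Serpina3n, and without the libraries carrying Sbp for 6. In whole brain, fewer cells of a type and less RNA per cell cannot be told apart.

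**Figure D1:**
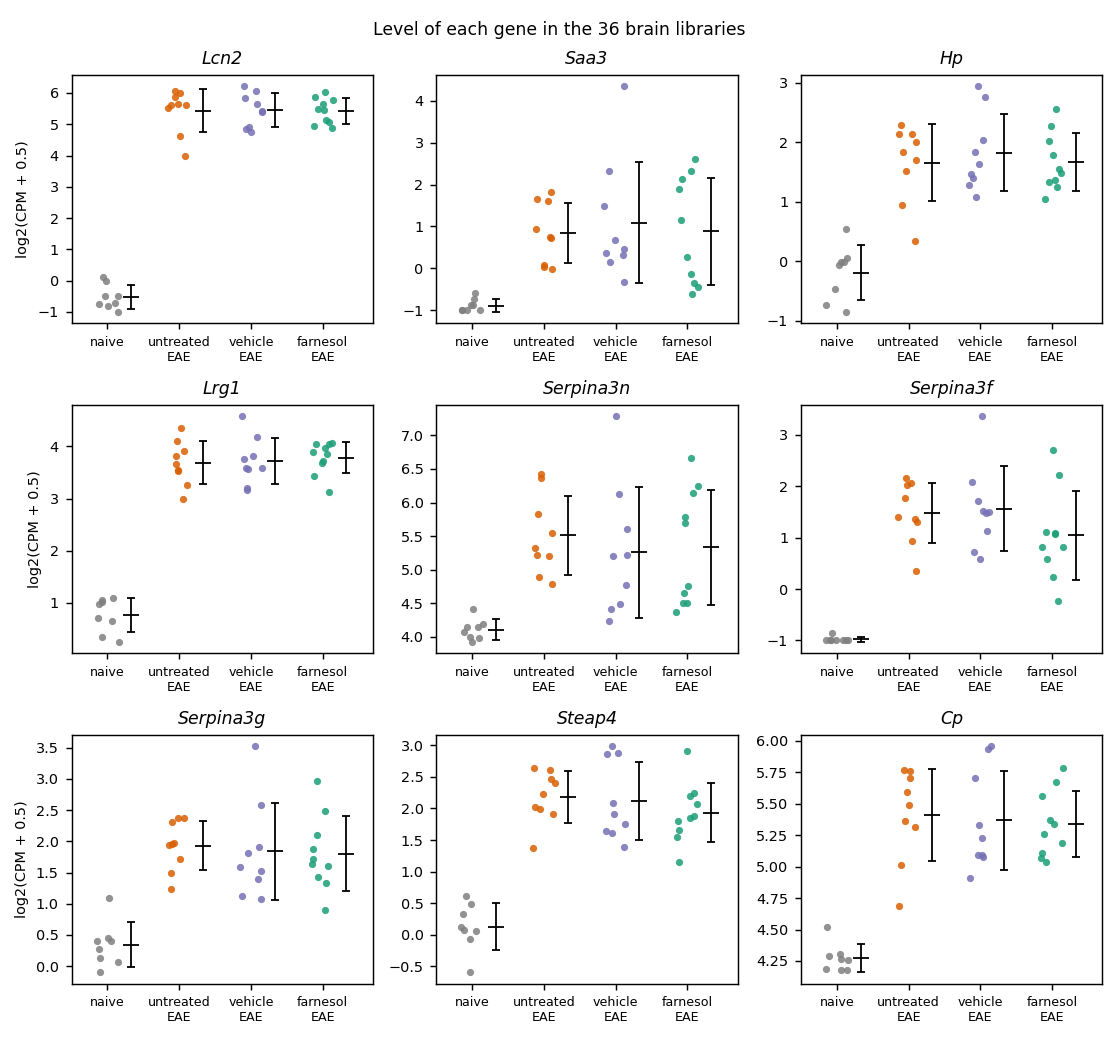
Level of each gene as log2(CPM + 0.5) in naive (n = 8), untreated (n = 9), vehicle (n = 9) and farnesol (n = 10) libraries; points are libraries, and bars are the mean ± SD. The 3 EAE groups overlap for every gene, and 1 vehicle library stands highest for Saa3, Serpina3n, Serpina3f and Serpina3g.

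Lcn2 (ENSMUSG00000026822, protein coding, GRCm38 chr2:32384633-32388252, minus strand) encodes lipocalin 2, which binds bacterial siderophores and so withholds iron. It was at the edge of detection in naive brain, with a lowest value of 0, a median of 0.157 and a highest of 0.596 CPM, from 33 counts in 8 libraries. The lowest, median and highest values were 15.4, 49.1 and 66.6 CPM in untreated EAE, 26.5, 42.3 and 74.5 CPM with vehicle, and 28.9, 43.9 and 64.3 CPM with farnesol. The lowest EAE library was thus 25.8 times the highest naive one, and no EAE group stood apart from the others. The log2 change against naive was 7.70 ± 0.41 (SE) in untreated, 7.69 ± 0.41 in vehicle and 7.62 ± 0.41 in farnesol brains. Inside the set that holds all naive and 7 farnesol libraries it was 7.56.

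Hp (ENSMUSG00000031722, chr8:109575128-109579172, minus strand) encodes haptoglobin, the plasma protein that captures free haemoglobin. Naive libraries ran from 0.0545 to 0.964 CPM with a median of 0.474. The lowest, median and highest values were 0.773, 3.06 and 4.41 CPM in untreated, 1.61, 2.61 and 7.21 CPM in vehicle, and 1.57, 2.36 and 5.42 CPM in farnesol brains. Only untreated replicate 3 fell inside the naive range. The changes against naive were 2.83 ± 0.40, 3.06 ± 0.40 and 2.82 ± 0.39.

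Cp (ENSMUSG00000003617, chr3:19957054-20009145, plus strand) encodes ceruloplasmin, a copper-carrying ferroxidase that astrocytes also hold on their surface. It was well expressed before disease, at 17.6, 18.7 and 22.5 CPM (lowest, median, highest) in naive brain, and its log2 change was the smallest of the 9, except in untreated and vehicle brains with library set as a term, where that of Serpina3n was smaller. The corresponding values were 25.3, 44.4 and 54.0 CPM in untreated, 29.5, 36.9 and 61.6 CPM in vehicle, and 32.3, 38.8 and 54.7 CPM in farnesol brains. The changes were 1.19 ± 0.15, 1.16 ± 0.15 and 1.10 ± 0.14, and the groups did not overlap with naive.

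Steap4 (ENSMUSG00000012428, chr5:7960457-7982213, plus strand) encodes a metalloreductase that reduces iron and copper before their uptake. Naive libraries measured 0.163 to 1.03 CPM with a median of 0.574. The lowest, median and highest values were 2.08, 4.19 and 5.74 CPM in untreated, 2.13, 3.25 and 7.41 CPM in vehicle, and 1.73, 3.15 and 6.99 CPM in farnesol brains. All lay above the naive range, with changes of 2.75 ± 0.31, 2.77 ± 0.31 and 2.49 ± 0.31. The family members Steap1, Steap2 and Steap3 passed the test in none of the 3 comparisons: Steap2, for example, measured 47.8 ± 9.79 CPM (SD) in naive and 45.5 ± 9.95 CPM in untreated brain (edgeR adjusted p = 0.765).

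Saa3 (ENSMUSG00000040026, chr7:46711998-46715700, minus strand) encodes serum amyloid A3, the family member made mainly outside the liver. It varied more between diseased brains than any other of the 9. Naive libraries held 7 counts in all and none exceeded 0.162 CPM. The lowest, median and highest values were 0.489, 1.18 and 3.04 CPM in untreated, 0.304, 0.871 and 19.9 CPM in vehicle, and 0.156, 1.22 and 5.56 CPM in farnesol brains. The highest EAE library, vehicle replicate 4, was 127 times the lowest, against 4.85 times for Lcn2. Without vehicle replicate 4 the spread was 35.6 times. With so few naive counts the size of the rise is loose: summed over libraries, the ratio to naive was 34.5 (95% interval 16.5 to 86.5) in untreated, 73.1 (35.3 to 183) in vehicle and 48.2 (23.2 to 121) in farnesol brains, where the intervals cover counting error only. Vehicle replicate 4 held 394 of the 636 vehicle counts, and without it the vehicle ratio was 31.1 (14.9 to 78.2) and the log2 change against naive went from 6.04 to 4.76. The liver forms Saa1 and Saa2 stayed under the count filter, at 0.134 ± 0.172 and 0.113 ± 0.143 CPM in naive and 0.121 ± 0.118 and 0.0745 ± 0.0896 CPM in untreated brain.

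Lrg1 (ENSMUSG00000037095, chr17:56119678-56122001, minus strand) encodes leucine-rich alpha-2-glycoprotein 1, a secreted protein that binds the endothelial co-receptor endoglin and alters TGF-beta signalling in vessels. Naive brain held 1.23 ± 0.368 CPM (SD, n = 8). The lowest, median and highest values were 7.44, 12.2 and 19.8 CPM in untreated, 8.48, 11.5 and 23.4 CPM in vehicle, and 8.25, 14.1 and 16.3 CPM in farnesol brains. The groups were far from overlapping with naive, at changes of 3.37 ± 0.22, 3.41 ± 0.22 and 3.44 ± 0.22. After removal of group means its SD over EAE libraries was 0.392 on the log2(CPM + 0.5) scale. That of Cp was 0.343, and the other 7 genes ranged from 0.504 (Steap4) to 1.19 (Saa3).

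Serpina3n, Serpina3f and Serpina3g are 3 genes of the mouse Serpina3 cluster on chromosome 12, which expanded from the ancestor of the single human gene for alpha-1-antichymotrypsin and encodes serine and cysteine protease inhibitors. Serpina3n (ENSMUSG00000021091, chr12:104406729-104414329, plus strand) is the member best known from reactive astrocytes. Its lowest, median and highest values in naive brain were 14.6, 16.7 and 20.7 CPM. Untreated brains measured 27.1, 39.6 and 85.5 CPM, vehicle brains 18.3, 36.3 and 156 CPM, and farnesol brains 20.1, 39.0 and 101 CPM. Its vehicle and farnesol ranges reached into the naive range while the untreated range did not. The changes against naive were 1.54 ± 0.37, 1.52 ± 0.37 and 1.48 ± 0.36.

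Serpina3f (ENSMUSG00000066363, chr12:104214544-104221129, plus strand) was the most nearly absent from naive brain, with 1 count in all and 7 of 8 libraries at 0. Its lowest, median and highest values were 0.773, 2.15 and 3.95 CPM in untreated, 1.01, 2.34 and 9.83 CPM in vehicle, and 0.356, 1.44 and 6.02 CPM in farnesol brains. Every EAE library exceeded the highest naive value of 0.0544 CPM. The ratio of summed counts to naive was 377 (95% counting interval 67.3 to 14900) in untreated, 452 (80.9 to 17900) in vehicle and 298 (53.1 to 11800) in farnesol brains.

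Serpina3g (ENSMUSG00000041481, chr12:104236245-104241939, plus strand), known from T cells and macrophages as a cathepsin inhibitor, measured 0.433, 0.765 and 1.64 CPM in naive brain. The corresponding values were 1.85, 3.40 and 4.70 CPM in untreated, 1.61, 2.51 and 11 CPM in vehicle, and 1.36, 2.69 and 7.32 CPM in farnesol brains, with changes of 2.09 ± 0.36, 2.18 ± 0.36 and 2.02 ± 0.36. The highest naive value was that of naive replicate 4, one of the libraries low in cerebellar markers. Of the exonic 50-base words of Serpina3g, 15.5% also occur in other genes, mostly other cluster genes, against 10.6% for Serpina3f and 6.9% for Serpina3n. How the authors' counting divided such reads is not given in the sources used here, so the split between these genes is uncertain. Of 8 other cluster genes only Serpina3i passed the filter, and it rose in untreated brains from 0.0305 ± 0.0496 to 0.463 ± 0.363 CPM (edgeR adjusted p = 0.00018) on 5 naive counts. With library set as a term it did not pass there (2.29 ± 0.99, edgeR adjusted p = 0.27). Serpina3a was at 0 in every library.

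The stretches before the RefSeq start sites of Steap4 and the 3 serpins are shown because a motif divides them: TTCNNNGAA, the palindromic element bound by STAT factors (searched on both strands). Promoter entries were found for 8 of the 9 genes (RefSeq, GRCm38.p6). The motif lies within 250 bases before the start site in Steap4, Serpina3f and Serpina3g and in 7.02% of 32851 such windows over all RefSeq genes. Capitals mark it, and the Steap4 stretch is shown only up to the first annotated exon base, which lies before the RefSeq start site:
Steap4 (chr5:7960222-7960456, plus strand): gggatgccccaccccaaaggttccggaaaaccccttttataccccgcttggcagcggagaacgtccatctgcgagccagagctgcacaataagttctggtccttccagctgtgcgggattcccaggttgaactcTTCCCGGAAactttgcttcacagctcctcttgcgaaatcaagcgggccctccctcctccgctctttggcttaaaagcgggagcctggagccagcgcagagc
Serpina3f (chr12:104214294-104214543, plus strand): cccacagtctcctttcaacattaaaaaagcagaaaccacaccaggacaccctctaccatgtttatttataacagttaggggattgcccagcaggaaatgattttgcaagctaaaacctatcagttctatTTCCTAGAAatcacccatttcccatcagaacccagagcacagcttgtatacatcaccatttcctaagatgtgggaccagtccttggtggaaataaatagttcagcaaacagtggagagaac
Serpina3g (chr12:104235897-104236146, plus strand): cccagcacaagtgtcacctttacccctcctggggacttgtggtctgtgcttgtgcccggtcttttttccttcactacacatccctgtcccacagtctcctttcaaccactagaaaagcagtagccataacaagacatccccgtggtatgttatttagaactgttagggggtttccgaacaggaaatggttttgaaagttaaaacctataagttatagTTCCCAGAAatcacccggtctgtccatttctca
Serpina3n (chr12:104406458-104406707, plus strand): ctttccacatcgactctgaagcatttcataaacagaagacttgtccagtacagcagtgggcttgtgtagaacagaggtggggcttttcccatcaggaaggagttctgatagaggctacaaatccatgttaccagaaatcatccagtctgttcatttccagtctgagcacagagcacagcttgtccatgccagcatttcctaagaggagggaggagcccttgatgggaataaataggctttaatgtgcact
The first letter of the motif lies 116 bases before the RefSeq start site in Steap4, 121 in Serpina3f (its first of 2 entries) and 33 in Serpina3g, with the sequences TTCCCGGAA, TTCCTAGAA and TTCCCAGAA. For Serpina3g and Serpina3n the first bases after the RefSeq start site matched no annotated transcript. Their annotated genes begin after the windows, at 104236245 and 104406729, so the 33 bases hold for the RefSeq start site only. The Serpina3n window holds no STAT motif, although its aligned bases were 75.8% identical to those of Serpina3f (227 aligned) and 78.6% to those of Serpina3g (187 aligned). Between Serpina3f and Serpina3g 83.2% of 161 aligned bases were identical. The windows of Lcn2, Saa3, Lrg1 and Cp also hold none. A C/EBP motif, TTNNGNAA, is in 36.8% of windows and occurs 4 times in Saa3, 3 in Serpina3f, 2 each in Steap4, Serpina3g and Serpina3n, 1 in Lcn2, 1 in each of 2 entries for Cp, and not in Lrg1. The kappa B motif (3.90% of windows) occurs 2 times in Steap4 and 1 time in Serpina3g, and 1 of the Steap4 matches and the Serpina3g match overlap a C/EBP match. A match of letters is not a site of binding, and no binding was measured.

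None of the 9 genes passed the test between EAE groups. Against untreated EAE, vehicle gavage gave 0 of 9 calls, where 0.0217% of the 18438 genes tested were called (adjusted p below 0.05 by edgeR's quasi-likelihood test with Benjamini-Hochberg adjustment). Farnesol against vehicle gave 0 of 9 where 0.0922% were called, and farnesol against untreated gave 0 of 9 where 1.87% were called. At an unadjusted p below 0.05 the count was also 0 in each comparison, and DESeq2 and limma-voom called 0 as well. The median log2 difference over the 9 genes was 0.05 for vehicle against untreated, -0.15 for farnesol against vehicle and -0.06 for farnesol against untreated, beside 0.01, 0.00 and 0.00 over all genes tested. These comparisons share groups and are not independent of each other.

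**Figure D2:**
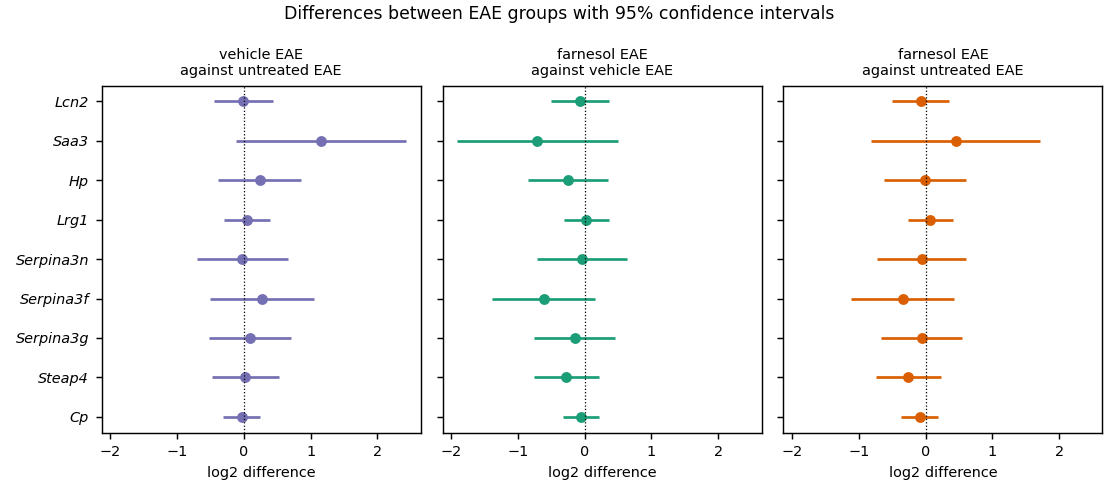
Log2 difference of each gene between EAE groups (point) with its 95% confidence interval (line) from the edgeR model. All 27 intervals include 0; the widest are those of Saa3 (-0.11 to 2.43, -1.91 to 0.50 and -0.81 to 1.72).

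The intervals set what could have been missed. For Lcn2, farnesol against vehicle differed by -0.07 (95% interval -0.50 to 0.36, adjusted p = 0.998 by edgeR), and vehicle against untreated by -0.01 (-0.44 to 0.43). For Cp, farnesol against vehicle gave -0.06 (-0.33 to 0.21), and for Lrg1 0.02 (-0.31 to 0.36). For Steap4 it was -0.28 (-0.76 to 0.21), for Hp -0.25 (-0.85 to 0.35), and for Serpina3n -0.04 (-0.71 to 0.63). For Serpina3f it was -0.61 (-1.38 to 0.15; unadjusted p = 0.114, adjusted p = 0.966 by edgeR). Over the 3 comparisons, differences of more than 1 log2 unit lay outside the intervals of 7 genes but not of Serpina3f and Saa3.

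Saa3 shows how far 1 brain can carry a group. It differed by 1.16 (-0.11 to 2.43) between vehicle and untreated and by -0.71 (-1.91 to 0.50) between farnesol and vehicle. Without vehicle replicate 4, which alone measured 19.9 CPM where the next vehicle library measured 4.49, these were -0.12 and 0.57. The same library moved farnesol against vehicle from -0.61 to -0.14 for Serpina3f, from -0.15 to 0.26 for Serpina3g and from -0.04 to 0.43 for Serpina3n. Inside the 1 set that holds all untreated and vehicle and 3 farnesol libraries, farnesol against vehicle was 0.06 for Lcn2, -0.01 for Saa3 and 0.43 for Serpina3n, with 0 of 9 called.

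Against naive brain, the contrast on which the genes were chosen, their median log2 change was 2.83, 3.06 and 2.82 in untreated, vehicle and farnesol brains. That these lie above the medians over all genes (-0.01, 0.00 and 0.01) follows from the choice. Library set limits these values. With the set as a term the estimates for untreated brains fell from 4.88 ± 1.15 to 3.71 ± 1.60 for Saa3 and from 2.83 ± 0.40 to 2.32 ± 0.61 for Hp. They fell from 2.09 ± 0.36 to 1.69 ± 0.59 for Serpina3g and from 1.54 ± 0.37 to 0.80 ± 0.61 for Serpina3n. The SE were thus wider, and none of these 4 passed the threshold (edgeR adjusted p = 0.267, 0.0526, 0.153 and 0.572). The term rests on farnesol replicates 1 to 3 against 4 to 10. Saa3 in replicates 1 to 3 was uneven, at 4.5, 0.156 and 5.56 CPM. In vehicle brains Saa3 (4.87), Serpina3g (1.78) and Serpina3n (0.78) did not pass (edgeR adjusted p = 0.0686, 0.0748 and 0.502). The estimates of Lcn2 were 7.49 and 7.48, those of Lrg1 3.43 and 3.48, and those of Cp 1.10 and 1.07. In farnesol brains the estimates with the set as a term ran from 1.07 (Cp) to 7.56 (Lcn2).

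Diseased brains differed in how much of each transcript they held, and most of the 9 genes went up and down together from brain to brain. Over the 28 EAE libraries, on log2(CPM + 0.5) with each group's mean removed, Pearson r was positive in all 36 pairs, with a median of 0.65. In 31 pairs it passed a two-sided permutation test within groups (100000 permutations, Benjamini-Hochberg over the 36 pairs). Over all 169970703 pairs of the 18438 genes, 49.4% of r were positive with a median of 0.00, and 6.16% reached 0.41, the lowest r among the 31. Among pairs of 1 of the 9 genes with any other gene, 9.2% reached 0.41, and the median r was -0.02. The groups' means do not enter these values, but the 9 genes were picked as high in diseased brain. Pairs of genes picked in that way were not drawn as a background. The libraries share depth scaling and tissue make-up, which act on all pairs.

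**Figure D3:**
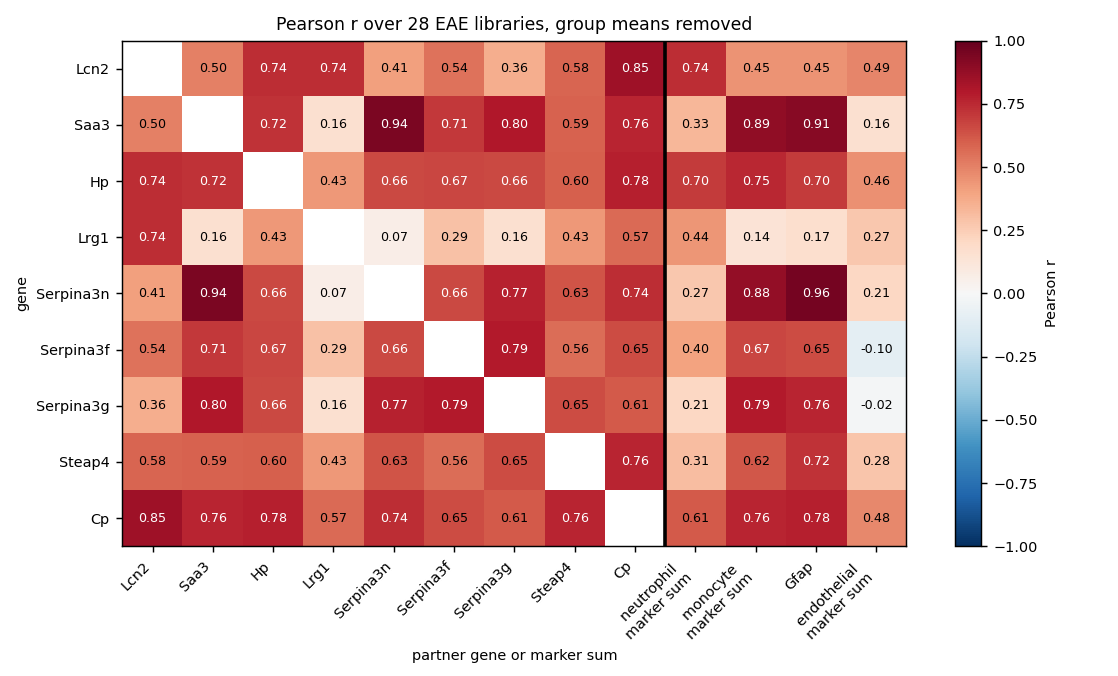
Pearson r between the 9 genes (left of the line) and between each gene and 4 cell type measures (right) over 28 EAE libraries, after removal of group means from log2(CPM + 0.5). The Lrg1 row is darkest at Lcn2 (0.74) and Cp (0.57) and palest at Serpina3n (0.07), and the Gfap column is darkest at Serpina3n (0.96) and Saa3 (0.91).

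The highest r was that of Saa3 and Serpina3n, at 0.94 (Spearman rho 0.89, both adjusted permutation p = 7.2e-05, from the smallest p that 100000 permutations can give, 1e-05). It was 0.91 without the 2 libraries farthest from the Saa3 median, 0.94 within each library set and 0.92 without vehicle replicate 4. Lcn2 and Cp followed at 0.85 (rho 0.85, both adjusted permutation p = 7.2e-05), with 0.78 without the 2 farthest libraries and 0.84 and 0.89 within the sets. Serpina3f and Serpina3g gave 0.79 (rho 0.74, adjusted permutation p = 0.00016 and 0.000103), and 0.71 without the 2 farthest. Inside the untreated, vehicle and farnesol groups their r was 0.43, 0.93 and 0.82. These genes share exonic 50-base words, and what reads divided between them add to this r was not tested. Lcn2 gave r = 0.74 with both Hp and Lrg1 (rho 0.68 and 0.77; adjusted permutation p = 0.00018 and 7.2e-05).

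Lrg1 was the gene with the most pairs that did not pass. It gave 0.07 with Serpina3n (rho 0.11, adjusted permutation p = 0.724 and 0.587), 0.16 with Saa3 (rho 0.17, 0.451 and 0.402), 0.16 with Serpina3g (rho 0.17, 0.451 and 0.416) and 0.29 with Serpina3f (rho 0.31, 0.155 and 0.124). The fifth pair that did not pass was Lcn2 with Serpina3g, at 0.36 (rho 0.38, adjusted permutation p = 0.0584 and 0.0626). Lcn2 and Serpina3n gave 0.41 over all 28 libraries (rho 0.48, adjusted permutation p = 0.0324 and 0.0161), but 0.26 in the larger set and 0.95 among the 7 farnesol libraries of the other. Whether r differs between pairs or sets was not tested.

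Single brains show the same pattern. Vehicle replicate 4 was the highest of the 28 EAE libraries for Saa3 (19.9 CPM), Serpina3n (156), Serpina3f (9.83), Serpina3g (11), Hp (7.21) and Steap4 (7.41). In the same library Lcn2 measured 49.8 and Lrg1 11.5 CPM, near the medians of 47.0 and 12.9 over EAE libraries. It also had the highest Gfap (1340 CPM) and the highest sum of 7 monocyte markers (146 CPM, against at most 76.6 in the other EAE libraries). Untreated replicate 3 was the lowest for Lcn2 (15.4), Hp (0.773), Lrg1 (7.44) and Cp (25.3), while its Serpina3n of 39.6 CPM was the median of its group. That library was also the lowest of the EAE libraries in the sum of 14 neutrophil markers, at 23.0 CPM, and was low in cerebellar markers.

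Measures of 4 cell types (Gfap for astrocytes, and marker sums for monocytes, neutrophils and endothelial cells) were set against the 9 genes in the same way, over 36 further pairs chosen after the data were seen. Gfap is the intermediate filament of astrocytes and rises when they react to injury. Its r was 0.96 with Serpina3n (rho 0.94, adjusted permutation p = 5.14e-05 and 6e-05; 0.94 without the 2 farthest libraries, 0.97 and 0.96 within the sets). It was 0.91 with Saa3, 0.78 with Cp, 0.76 with Serpina3g, 0.72 with Steap4 and 0.70 with Hp, with rho of 0.88, 0.77, 0.66, 0.65 and 0.64 in that order. The adjusted permutation p of these r was at most 0.000295 and that of rho at most 0.00193. With Lrg1 it was 0.17 (rho 0.17, adjusted permutation p = 0.468 and 0.432). With Lcn2 it was 0.45 (rho 0.48, adjusted permutation p = 0.0298 and 0.028).

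Gfap is 1 of 8 astrocyte markers listed. Of these only Gfap and Vim rose in untreated, vehicle and farnesol brains, and 3, 2 and 4 fell, among them the glutamate transporter gene Slc1a2 each time; with library set as a term neither Gfap nor Vim passed in untreated or vehicle brains, and both did in farnesol brains. The sum of the other 7 markers gave r between -0.02 (Serpina3g) and 0.33 (Hp) with the 9 genes, and 0 of 9 passed (lowest adjusted permutation p = 0.245, over 18 pairs added after the data were seen). With Serpina3n it was 0.06, against 0.79 for the sum of all 8.

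The monocyte sum gave 0.89 with Saa3 and 0.88 with Serpina3n (rho 0.80 and 0.83, adjusted permutation p = 5.14e-05 and 6e-05 for both), and 0.45 with Lcn2 (rho 0.65, 0.0157 and 0.00099). Much of that sum is Vcan, 1 of its 7 markers, which passed against naive in no EAE group. Vcan measured 23.7 ± 1.78 CPM in naive and 23.0 ± 2.49 CPM in untreated brain, beside median sums of 24.8 and 41.8 CPM. Chil3 measured 13.3 ± 24.7 CPM in vehicle brains. A monocyte sum without Vcan was not tested. The endothelial sum passed with Lcn2 (0.49), Cp (0.48) and Hp (0.46) only, with rho of 0.46, 0.47 and 0.44 and adjusted permutation p of r of 0.0268, 0.0298 and 0.0395. Among the 7 farnesol libraries of the smaller set these 3 were negative (-0.33, -0.25 and -0.12).

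**Figure D4:**
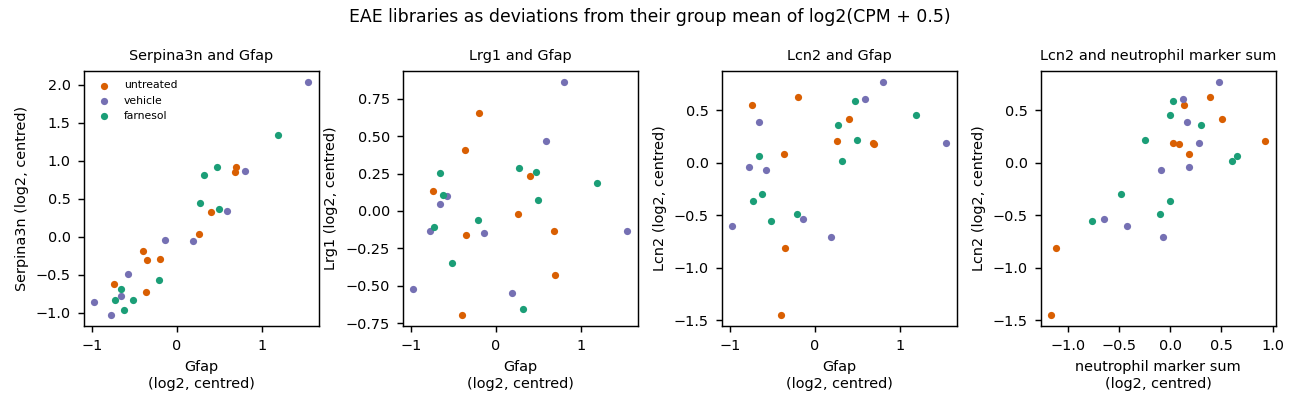
Each EAE library (point, coloured by group) as its deviation from its group mean of log2(CPM + 0.5), for Serpina3n, Lrg1 and Lcn2 against Gfap and for Lcn2 against the sum of 14 neutrophil markers. Serpina3n follows Gfap closely (r = 0.96), Lrg1 does not (r = 0.17), and the 2 lowest Lcn2 libraries are also the 2 lowest in neutrophil markers.

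The neutrophil sum covers S100a8, S100a9, Ngp and 11 further genes of granules and receptors, and neutrophils themselves store lipocalin 2 and haptoglobin in their granules. Naive brains summed to 6.55 to 10.4 CPM, untreated brains to 23.0 to 99.4, vehicle brains to 43.4 to 95.1 and farnesol brains to 35.2 to 94.8. Csf3r was the largest single part, at 5.43 ± 1.06 CPM in naive and 20.5 ± 9.38 CPM in untreated brain. It rose there by 1.92 ± 0.30, below the median of 3.38 over the tested markers. All 12 tested markers of the 14 rose in each EAE group (8, 9 and 12 of them with library set as a term), and Ly6g, the defining surface marker, was at 0 in every naive library (which allows up to 0.0199 CPM over the group, from 3 counts) and at 0.148 ± 0.141 CPM in untreated brains. Among EAE libraries the sum gave r = 0.74 with Lcn2 (rho 0.63, adjusted permutation p = 0.00036 and 0.00193) and 0.70 with Hp (rho 0.64, 0.000288 and 0.00152). It also passed with Cp (0.61), Lrg1 (0.44) and Serpina3f (0.40), with adjusted permutation p of 0.00198, 0.0395 and 0.0408. With Lcn2 it was 0.54 without the 2 libraries farthest from the Lcn2 median, 0.78 and 0.61 within the sets, and 0.51 without the libraries carrying Sbp. With Serpina3n it was 0.27 (rho 0.26, adjusted permutation p = 0.171 and 0.24). The part of these cell types in the level of any of the 9 genes was not tested.

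Genes whose level most resembled that of Lcn2 over the 28 EAE libraries, among 12315 genes of at least 5 CPM, were C1s1 (r = 0.88), which encodes a complement protease, Pglyrp1 (0.83), a peptidoglycan-binding granule protein, Cd14 (0.81), the co-receptor for lipopolysaccharide, Ly6c1 (0.80), a surface protein of endothelial and myeloid cells, and Igfbp7 (0.79), a secreted vascular protein. They were chosen by r and are named as a description.

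Of 28 other positive acute phase genes 14 were too low to test, among them the classical liver genes Saa1, Saa2, Crp, Apcs, Orm1 and the 3 fibrinogen chain genes. Of the 14 tested, 10 rose in untreated brains, 11 with vehicle and 11 with farnesol, and 0 fell, beside the background of 13.6%, 16.3% and 17.9% of all genes that rose. With library set as a term 2 (Itih4 and Cd14), 4 and 9 of the 14 rose, beside 0.542%, 1.96% and 13.6% of all genes. The median log2 change over the tested genes was 1.47, 1.36 and 1.38. Il1rn, the natural antagonist of the interleukin 1 receptor, rose by 4.52 ± 0.87 in untreated brains (edgeR adjusted p = 0.000217) on 6 naive counts. Itih4, which stabilizes extracellular matrix, rose by 3.87 ± 0.54 (adjusted p = 3.17e-06 by edgeR) on 8 naive counts.

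Ptx3, the long pentraxin made by myeloid cells and astrocytes, rose by 1.56 ± 0.41 (edgeR adjusted p = 0.00444), and Timp1, an inhibitor of metalloproteinases, by 1.43 ± 0.46 (edgeR adjusted p = 0.0191). Lbp, which hands lipopolysaccharide to Cd14, went from 6.79 ± 1.15 to 8.64 ± 0.938 CPM, a rise of 0.35 ± 0.10 (edgeR adjusted p = 0.00998). Cfb, complement factor B, had an adjusted p of 0.0516 in untreated brains by edgeR and rose with vehicle (2.04 ± 0.55) and farnesol (2.15 ± 0.54). With library set as a term Ptx3, Timp1 and Lbp did not pass in untreated brains, and Cfb passed with farnesol only. Mt2, a metallothionein, did not pass in any EAE group (-0.13 ± 0.24, 0.51 ± 0.24 and 0.45 ± 0.23).

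Genes that the liver lowers in an acute phase gave no call. Of 6 listed, Alb, Apoa1 and Serpina6 were too low to test, and 0 of the other 3 changed. Ttr, the thyroxine carrier that choroid plexus makes in quantity, measured 652 ± 137 CPM in naive and 663 ± 200 CPM in untreated brain (edgeR adjusted p = 0.932).

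**Figure D5:**
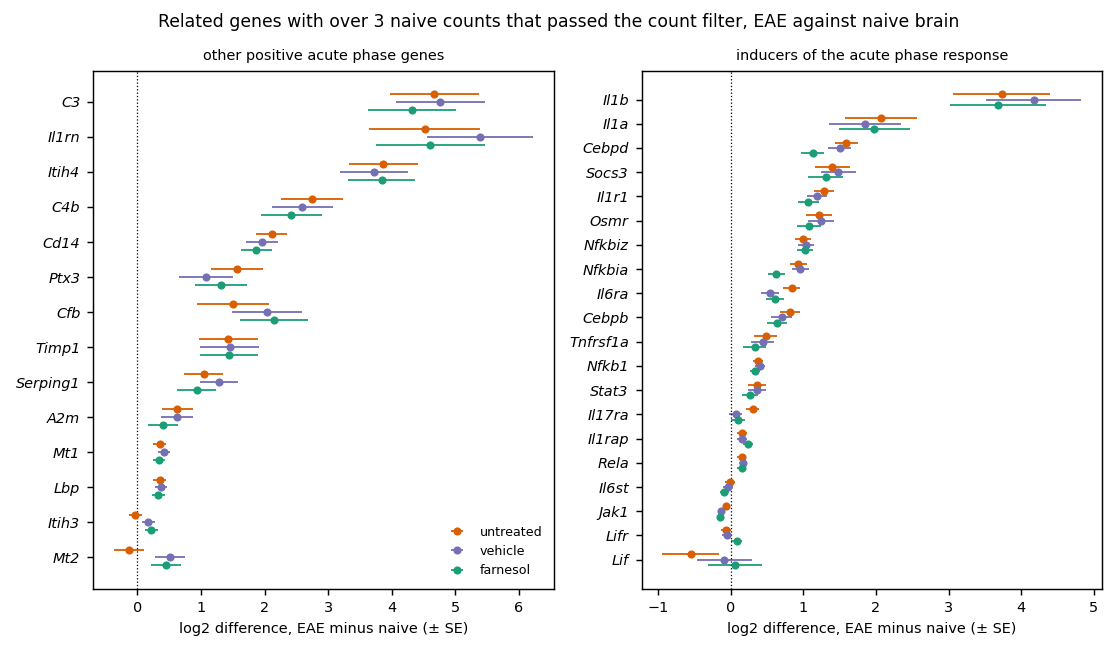
Log2 difference from naive brain (point) ± SE (line) for other acute phase genes (left) and for inducers of the response (right) in untreated, vehicle and farnesol EAE, for genes with more than 3 naive counts that passed the filter. C3 and Il1rn on the left and the cytokine gene Il1b on the right lie farthest from 0, and Il6st lies near it.

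The signals that switch these genes on in liver were also measured. Of 23 inducers 21 were tested, and 16 rose in untreated, 15 in vehicle and 14 in farnesol brains, while 0, 1 and 1 fell. Over all genes 13.6%, 16.3% and 17.9% rose and 11.3%, 15.2% and 16.3% fell. With library set as a term 3 (Il1r1, Cebpd and Nfkbiz), 6 and 12 inducers rose. The 1 that fell was Jak1, the kinase bound to interleukin 6 type receptors (-0.13 ± 0.04 with vehicle and -0.15 ± 0.04 with farnesol). With library set as a term Jak1 passed with farnesol only. The ligand gene Il6 was too low to test, with 5 counts over the 8 naive libraries and 19, 26 and 8 in untreated, vehicle and farnesol brains. Osm, which encodes oncostatin M, was also too low, at 0.0314 ± 0.0262 CPM in naive and 0.442 ± 0.139 CPM in untreated brain. Il1b, interleukin 1 beta, rose from 0.134 ± 0.115 to 1.88 ± 1.22 CPM in untreated brains (3.73 ± 0.67, edgeR adjusted p = 8.83e-05).

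On the receiving side, Osmr, the oncostatin M receptor chain, rose by 1.21 ± 0.18, 1.24 ± 0.18 and 1.08 ± 0.17 in the 3 EAE groups. The shared chain Il6st passed in none: naive brains measured 128 ± 11.9 CPM, and the untreated, vehicle and farnesol groups 128 ± 15.4, 125 ± 13.5 and 121 ± 8.12 CPM. Stat3 itself rose little and passed in untreated (0.36 ± 0.12) and vehicle brains (0.36 ± 0.12) but not with farnesol (0.26 ± 0.11, edgeR adjusted p = 0.0713). Its feedback inhibitor Socs3 rose by 1.40 ± 0.24, 1.48 ± 0.24 and 1.31 ± 0.24. Nfkbia, the inhibitor of NF-kappa B, and Nfkbiz, a nuclear cofactor of Lcn2 transcription, rose by 0.93 ± 0.12 and 0.99 ± 0.11 in untreated brains. With library set as a term Nfkbiz passed in untreated brains, and Osmr, Stat3, Socs3 and Nfkbia did not. In vehicle brains Osmr then passed, and Stat3 and Socs3 did not. In farnesol brains Osmr and Socs3 both passed.

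Cebpd, a C/EBP factor of the acute phase, rose by 1.59 ± 0.16 in untreated, 1.5 ± 0.16 in vehicle and 1.13 ± 0.16 in farnesol brains. Between farnesol and untreated brains it differed by -0.46 ± 0.14 (edgeR adjusted p = 0.0798), which did not pass. No gene of the inducer or acute phase lists was called in any comparison between EAE groups.

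Of 12 receptors, ligands and targets of the encoded proteins, 9 were tested, and 2 rose in untreated, 3 in vehicle and 4 in farnesol brains, while 0, 1 and 1 fell. Over all genes 13.6%, 16.3% and 17.9% rose, so on 9 genes little can be read from these counts, and with library set as a term 0, 0 and 2 rose and 0 fell. Mmp9, the metalloproteinase that lipocalin 2 binds, rose by 0.94 ± 0.20, 1.07 ± 0.20 and 0.93 ± 0.20. Slc22a17, a lipocalin 2 receptor, measured 681 ± 33.9 CPM in naive brain and fell by 0.16 ± 0.06 with vehicle and by 0.14 ± 0.06 with farnesol (edgeR adjusted p = 0.0337 and 0.0447). Cd163, the receptor for haptoglobin bound to haemoglobin, did not pass (3.85 ± 0.577 CPM in naive, 4.28 ± 0.872 in untreated brain), nor did Lrp1, a scavenger receptor for protease and serpin complexes (513 ± 31.0 and 509 ± 57.6 CPM). Eng, the endoglin bound by Lrg1, passed with farnesol only (0.27 ± 0.11, edgeR adjusted p = 0.044, against 0.28 ± 0.11 and an adjusted p of 0.0518 in untreated brains); whether the groups differ is given by farnesol against untreated, where it was not called.

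Of 10 other genes of iron and copper handling, 2 rose in untreated, 2 in vehicle and 3 in farnesol brains, and 1 fell in each, counts near the shares over all genes (13.6%, 16.3% and 17.9% rose, and 11.3%, 15.2% and 16.3% fell). The gene that fell was Slc40a1, the iron exporter ferroportin that works with ceruloplasmin, which measured 13.4 ± 0.821 CPM in naive brain. It fell by 0.59 ± 0.10 in untreated, 0.48 ± 0.10 in vehicle and 0.43 ± 0.10 in farnesol brains (edgeR adjusted p = 4.08e-05, 0.000337 and 0.00091). Heph, hephaestin, the ferroxidase related to ceruloplasmin, did not pass in any group (-0.29 ± 0.11, -0.16 ± 0.11 and -0.06 ± 0.11). With library set as a term 0 of the 10 genes passed in untreated or vehicle brains, and Slc40a1 passed in farnesol brains, where it fell by 0.45 ± 0.11 (edgeR adjusted p = 0.00253).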

How the data were processed

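Total RNA of 36 mouse brain samples was extracted on RNeasy columns and prepared with NEBNext Ultra reagents, per the labels' protocols. The authors deposited raw counts of reads per gene for 54532 Ensembl identifiers. STAR 2.5 and the mm10 build are named in the submitters' processing notes. The labels' protocols also name Kallisto. Which counter and annotation release were used, and whether strand was, is not given in the sources used here. Reads shared by near-identical genes may therefore be divided in ways that cannot be checked, which matters most for the Serpina3 genes. Symbols, exon lengths and coordinates came from GENCODE M21 (GRCm38), which named 54409 identifiers with 99.94% of counts.

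Genes were kept by filterByExpr (minimum count 10, total 15), which left 18438. One edgeR 4.0.16 quasi-likelihood model (R 4.3.3, TMM scaling, a mean per group, all 36 libraries) gave log2 changes, SE and 95% intervals, with Benjamini-Hochberg adjustment over all genes and adjusted p below 0.05 as a call. CPM are TMM-scaled, given as mean ± SD. Depth of 14705992 to 24211092 counts per library makes 1 count about 0.05 CPM, so values under 0.5 CPM rest on few counts, and counting intervals are exact. Correlations used log2(CPM + 0.5) with group means removed and permutation within groups (Python 3.11.15, numpy 2.4.6). Promoter windows are from RefSeq (GRCm38.p6).

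The members and gene lists were chosen with earlier results of these data known. The text names the 9 genes, a list written with the design, and the 5 genes of highest r with Lcn2 above 5 CPM. Alternatives were RLE scaling, DESeq2 1.42.0, limma-voom 3.58.1, other filters, fits of the groups compared only, replicate number as a block, library set as a term, 1 set only, and leaving out libraries. Those on co-variation without vehicle replicate 4 or without libraries carrying Sbp, those on the count of genes above every naive library, the pairs with cell type measures, the other lists with library set as a term, and the Saa3 ratio without vehicle replicate 4 were added after seeing the data. Replicate numbers were not treated as pairs. The model was tested on simulated counts.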

Additional observations from a re-analysis of the deposited data

Results flagged for a closer look

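For each of the 9 genes in each of the 4 groups (36 sets of values), the highest and lowest libraries were compared with the rest by the gap to the nearest library over the range. In 8 the gap exceeded Dixon's 95% critical value. The rate of 1 in 20 that goes with this value holds for normally distributed values. Here the values were CPM without a log, and each flag was of the highest library, so no excess over chance is read. Vehicle replicate 4 accounted for 4 of them, with Saa3 at 19.9 CPM (next 4.49), Serpina3n at 156 CPM (next 69.3), Serpina3f at 9.83 CPM (next 3.72) and Serpina3g at 11 CPM (next 5.49). These 4 genes share a library and are not independent. Farnesol replicate 3 had Steap4 at 6.99 CPM (next 4.22). Among naive libraries, replicate 4 had Serpina3g at 1.64 CPM (next 0.872), replicate 5 had Cp at 22.5 CPM (next 19.3), and replicate 6 had the only Serpina3f count of the group (0.0544 CPM, the others at 0). With all others at 0, that 1 count was enough for a flag. What set these libraries apart was not tested.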

How the results depend on the processing

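Across the alternatives, all 744 changes of the 9 genes against naive brain were positive, and 11 moved by more than the SD between libraries. Between EAE groups, 0 of 801 tests of the 9 genes passed under any alternative (lowest adjusted p = 0.318), and 133 of these uncalled values had another sign than the value reported. Counts over all genes were less steady. With library set as a term, 175 genes were called in untreated and 684 in vehicle against naive brain. Vehicle against untreated (4 genes) gave 7 with RLE scaling, 43 with DESeq2, 15 with limma-voom, 7 at a mean of at least 1 CPM, 1 with only the groups compared, 11 with library set as a term, 1 with libraries of 1 set, 0 without libraries carrying Sbp and 1 without those low in cerebellar markers. Farnesol against vehicle (17) gave 42 with DESeq2, 8 with only the groups compared, 1 with library set as a term, 0 within 1 set and 7 without libraries carrying Sbp. Farnesol against untreated (345) gave 521, 128, 56, 12 and 225 under the same 5 settings, and 567 without libraries low in cerebellar markers. The cause of these shifts was not tested.

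Leaving out 1 library at a time gave 3688 to 4667, 5085 to 5766 and 5628 to 6463 genes in untreated, vehicle and farnesol against naive brain, and 0 to 15 in vehicle against untreated, 8 to 36 in farnesol against vehicle and 210 to 500 in farnesol against untreated, with 0 of the 9 genes called between EAE groups each time. With replicate number as a block the counts between EAE groups were 10, 7 and 202, in the same order, and 0 of the 9 genes changed their call. Same-numbered libraries showed no pairing (51 pairs, r from -0.38 to 0.43, median 0.01; 5 of 36 libraries correlated best with their own number). Of 36 pairs of the 9 genes, 31 passed over all EAE libraries and 0 among the 7 farnesol libraries of the smaller set, although 34 of 36 r were positive there (median 0.69), and between 27 and 33 passed in the other settings, of which 27 to 31 were among the 31. Depth limits Saa3 and Serpina3f in naive brain to 7 and 1 counts.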

Other observations

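Tfrc, the transferrin receptor through which cells take up iron, was the 1 gene of the iron and copper list called between EAE groups. It measured 110 ± 10.0 CPM in untreated (n = 9), 119 ± 6.69 in vehicle (n = 9) and 132 ± 10.7 in farnesol brains (n = 10), beside 106 ± 10.1 in naive brain (n = 8). It rose by 0.26 ± 0.05 in farnesol against untreated brains (edgeR adjusted p = 0.00438) and did not pass in farnesol against vehicle (0.15 ± 0.05, edgeR adjusted p = 0.504). That comparison lies mostly across the library sets, so treatment and set cannot be told apart.

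Serpina3h, a further Serpina3 gene under the count filter, had 9 counts over the naive libraries and 40, 44 and 25 over the untreated, vehicle and farnesol libraries.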
